A study of Homo sapiens with 6 samples.

Results

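The immunoproteasome and peptide loading genes are a group of 10 genes whose products make, carry, trim and load peptides for MHC class I, or switch these genes on: *PSMB8*, *PSMB9*, *PSMB10*, *PSME1*, *TAP1*, *TAP2*, *TAPBP*, *ERAP1*, *ERAP2* and *NLRC5*. They were taken from the deposited expression table by symbol, and all 10 were found among the 16418 genes used. The table gives mRNA levels in 6 established human breast cancer cell lines, with 1 sequenced library for each line. MDA-MB-415 is labelled adenocarcinoma and was grown in L-15 medium with 15% serum, insulin and glutathione. It was set against UACC-812 (ductal carcinoma, L-15 medium, 20% serum, EGF), SKBR3 (adenocarcinoma, RPMI medium, 20% serum), MDA-MB-453 (metastatic carcinoma, IMEM, 20% serum), T47D (ductal carcinoma, RPMI medium, 10% serum) and CAL51 (breast carcinoma, RPMI medium, 10% serum). No line had a treated or engineered counterpart, so each line is its own group. Apart from T47D against CAL51, listed with the same medium and serum, line and culture medium cannot be told apart. With no replicates, differences between lines have no replicate check and no p-value is given. A line also stands only for itself, and within a culture fewer expressing cells and less RNA per cell cannot be told apart.

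Values are read as RPKM, reads normalised for exon length and library size, summed over the exons of a gene. Such sums grow with exon number, so levels are compared between lines for 1 gene and not between genes. Recovered depth was about 30200000 reads in MDA-MB-415 and ran from about 25600000 (UACC-812) to about 36500000 (CAL51) in the other lines. In a 150-base exon, 3 reads amount to 0.663 in MDA-MB-415 and to 0.548 to 0.781 in the other lines, and values below this could not be told apart at this depth. Deviations are on the log2(value + 1) scale, as the difference of a line from the median of the 5 others, less the median of that difference over all genes in the line. That median, the shift, was -0.01 in MDA-MB-415, 0.09 in T47D, 0.23 in CAL51, 0.19 in UACC-812, -0.46 in SKBR3 and 0 in MDA-MB-453. A deviation of 1 is called 2-fold.

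Nucleated cells show fragments of their own proteins on MHC class I molecules, where cytotoxic T cells read them. The proteasome cuts proteins into peptides, and interferon-gamma induces replacement catalytic subunits that turn the constitutive core into the immunoproteasome. Peptides then pass into the endoplasmic reticulum through the TAP transporter, are trimmed there by the aminopeptidases ERAP1 and ERAP2, and are loaded onto class I with the help of tapasin. NLRC5 is a transactivator that drives transcription of class I genes and of several of these partners, and low expression of this machinery in tumours is a known route of escape from T cells.

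Interferon acts on many of these genes through short elements near the transcript start, so the promoter windows of the group are shown first. RefSeq (GRCh38.p14) gave windows from 250 bases before to 50 bases after the start for 9 members in 13 windows. The core GAAANNGAA of the interferon-stimulated response element, searched on both strands, was found in 8 of these 9 members, every one except *PSMB9*. Over all 35116 windows 8.11% held it, and so did 8.91% of the 10886 genes of the table with a window. In the following stretches, each read 5′ to 3′ along the gene's strand, capitals mark the core or its reverse complement. They show the core in a subunit gene, the activator gene, the transporter gene, the tapasin gene and a trimming enzyme gene, followed by a stretch of the *PSMB9* window around its start, which lacks it. The places are chr16:67936833-67936901 (minus strand) for *PSMB10*, chr14:24136170-24136238 (plus strand) for *PSME1*, chr6:32853793-32853867 (minus strand) for *TAP1*, chr6:33314054-33314128 (minus strand) for *TAPBP*, chr5:96876440-96876508 (plus strand) for *ERAP2* and chr6:32854132-32854201 (plus strand) for *PSMB9*.
PSMB10: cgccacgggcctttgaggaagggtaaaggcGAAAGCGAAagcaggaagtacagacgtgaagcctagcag
PSME1: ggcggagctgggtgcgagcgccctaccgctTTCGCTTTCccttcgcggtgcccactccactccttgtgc
TAP1: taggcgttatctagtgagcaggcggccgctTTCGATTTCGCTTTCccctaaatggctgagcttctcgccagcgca
TAPBP: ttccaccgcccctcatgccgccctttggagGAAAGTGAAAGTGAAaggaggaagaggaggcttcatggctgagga
ERAP2: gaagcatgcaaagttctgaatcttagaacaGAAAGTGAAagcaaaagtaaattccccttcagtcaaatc
PSMB9: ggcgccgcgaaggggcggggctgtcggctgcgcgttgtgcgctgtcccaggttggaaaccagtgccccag
*TAP1* and *TAPBP* each held a pair of overlapping cores. The core began 21 bases before the start in *PSMB10*, 30 before in *ERAP2* and 6 after in *PSME1*, and 133 before in *TAP1*. Further cores began at -3 in *PSMB8*, -58 in *TAP2* and 3 in *ERAP1*. *TAP1* and *PSMB9* are transcribed away from each other with starts 488 bases apart, and the *TAP1* core lies outside the *PSMB9* window. The gamma-activated site TTCNNNGAA was found in *PSMB8* and *TAP1*, or 2 of 9 members, against 8.87% of genes of the table. The kB site GGNNNTTCC was found in 4 of 9 (*PSMB8*, *TAP1*, *TAPBP* and *ERAP1*), against 28.4% of genes. The TATA box pattern TATAAA, also searched on both strands, was found in 1 of 9, *TAP2*, against 9.99% of genes. That match lay on the strand opposite to the gene and began 214 bases before the start. The kB and gamma-activated patterns can overlap by sharing the letters TTC, though in these windows their matches lay apart. A match describes letters in the window, not binding.

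**Figure D1:**
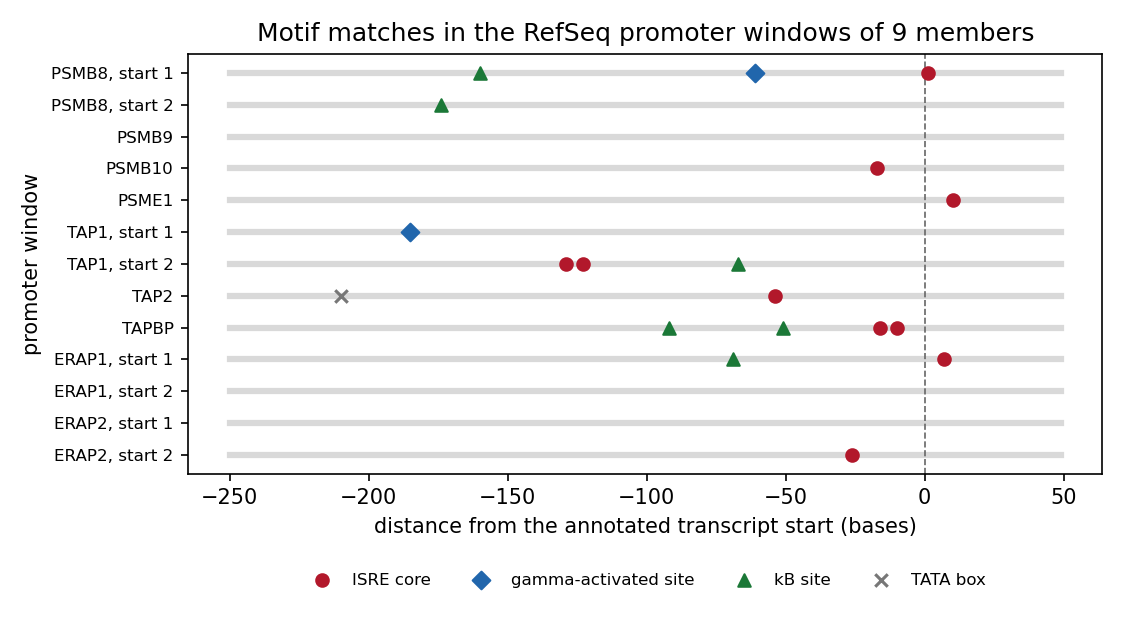
Positions of 4 motifs in the 13 RefSeq promoter windows of 9 members. The horizontal axis is distance in bases from the annotated transcript start (dashed line), each grey bar is 1 window, and symbols mark matches on either strand near their middle. The red circles of the interferon-stimulated response element (ISRE) core lie in 8 windows, and no motif lies in the *PSMB9* window.

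*PSMB8*, *PSMB9* and *PSMB10* encode the catalytic subunits that replace the constitutive ones in the immunoproteasome. *PSMB8* stood at 616 in MDA-MB-415, against 106 in T47D, 39.2 in CAL51, 7.07 in UACC-812, 45.1 in SKBR3 and 10.3 in MDA-MB-453. MDA-MB-415 was 5.81 times the next line, T47D, and the other lines themselves spread over 15.0-fold. *PSMB9* stood at 138 in MDA-MB-415, against 10.9 in T47D, 4.69 in CAL51, 0.262 in UACC-812, 0.437 in SKBR3 and 2.40 in MDA-MB-453. The value in MDA-MB-415 was 12.7 times that in T47D, the widest gap of the group to the second line, while the UACC-812 and SKBR3 values lie under the worth of 3 reads in a 150-base exon and cannot be ordered. *PSMB10* stood at 393 in MDA-MB-415, against 34.2 in T47D, 46.4 in CAL51, 34.6 in UACC-812, 42.1 in SKBR3 and 40.4 in MDA-MB-453. Here the other lines lay within 1.35-fold of each other, and MDA-MB-415 was 8.47 times the highest of them, CAL51. T47D was the second line for *PSMB8* and *PSMB9* and the lowest for *PSMB10*.

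*PSME1* encodes the alpha subunit of PA28, the cap that opens the proteasome core. Its level was 4526 in MDA-MB-415, against 1606 in T47D, 1453 in CAL51, 2266 in UACC-812, 1249 in SKBR3 and 1302 in MDA-MB-453. It was the least raised member, with MDA-MB-415 at 2.00 times UACC-812, and its log2(value + 1) difference from that line, 0.998, fell just short of 2-fold. *PSME2*, which encodes the beta subunit of the same cap, stood at 1453 in MDA-MB-415 and between 299 and 555 in the 5 others. *PSME3*, whose product forms a separate nuclear cap, stood at 563 in MDA-MB-415 and between 472 and 1396 elsewhere.

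**Figure D2:**
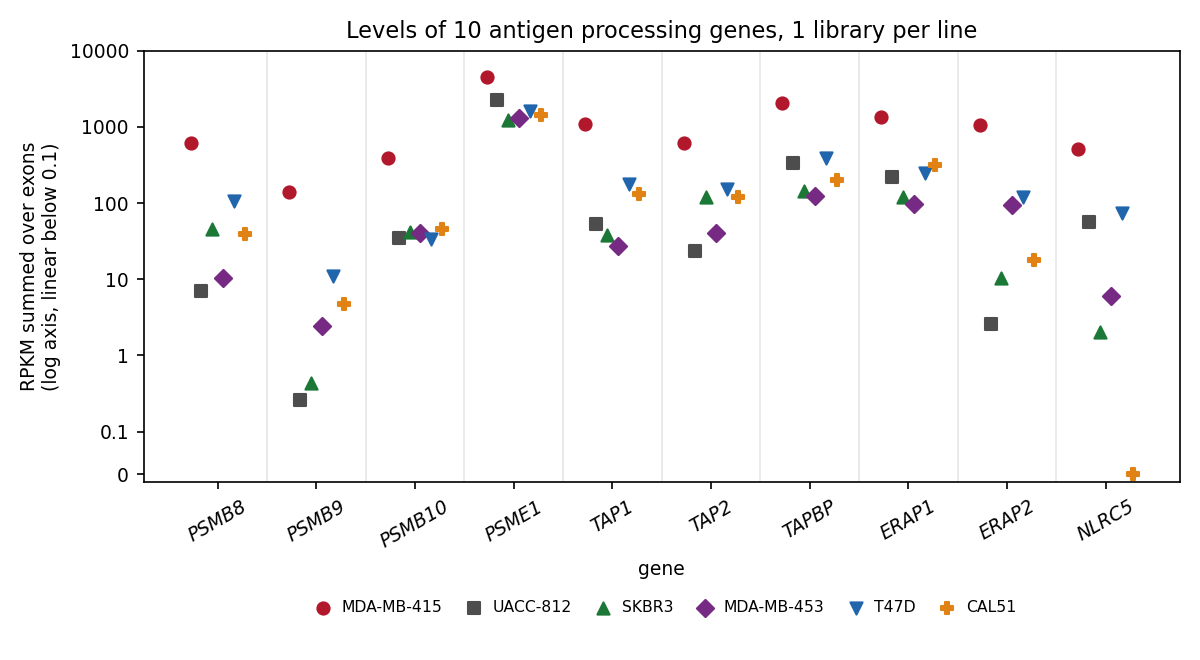
Level of each of the 10 genes in each line, as RPKM summed over exons on a log axis that is linear below 0.1. Each symbol is 1 library, and the red circle of MDA-MB-415 is the highest for every gene, from 2.00 times the second line for *PSME1* to 12.7 times for *PSMB9*.

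*TAP1* and *TAP2* encode the subunits of the transporter that carries peptides into the endoplasmic reticulum. *TAP1* stood at 1090 in MDA-MB-415, against 178 in T47D, 132 in CAL51, 53.8 in UACC-812, 37.9 in SKBR3 and 27.3 in MDA-MB-453. *TAP2* stood at 624 in MDA-MB-415, against 155 in T47D, 119 in CAL51, 23.4 in UACC-812, 119 in SKBR3 and 41.1 in MDA-MB-453. MDA-MB-415 was 6.13 times T47D for *TAP1* and 4.04 times T47D for *TAP2*. The subunit genes were not ordered alike below that: SKBR3 lay next to last for *TAP1* but level with CAL51 for *TAP2*, and UACC-812 was lowest for *TAP2* only.

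*TAPBP* encodes tapasin, which bridges TAP and empty class I molecules. Its level was 2048 in MDA-MB-415, against 392 in T47D, 202 in CAL51, 338 in UACC-812, 143 in SKBR3 and 125 in MDA-MB-453. MDA-MB-415 was 5.23 times T47D, and the 5 others lay within 3.13-fold of each other.

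*ERAP1* and *ERAP2* encode the endoplasmic reticulum aminopeptidases that trim peptides to the length class I holds. *ERAP1* stood at 1331 in MDA-MB-415, against 245 in T47D, 316 in CAL51, 218 in UACC-812, 122 in SKBR3 and 98.8 in MDA-MB-453. The value in MDA-MB-415 was 4.21 times that in CAL51, and the other lines spread over 3.20-fold. *ERAP2* stood at 1046 in MDA-MB-415, against 122 in T47D, 17.8 in CAL51, 2.58 in UACC-812, 10.3 in SKBR3 and 94.5 in MDA-MB-453. For this gene MDA-MB-415 was 8.58 times T47D, and the 5 others spread over 47.2-fold, with MDA-MB-453 and T47D well above UACC-812, SKBR3 and CAL51.

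*NLRC5* encodes the class I transactivator. It stood at 518 in MDA-MB-415, against 73.8 in T47D, 56.4 in UACC-812, 2.02 in SKBR3 and 5.98 in MDA-MB-453, and CAL51 was listed at 0. MDA-MB-415 was 7.02 times T47D. UACC-812 and T47D formed a middle pair, and the remaining lines lay at 5.98 or less. Not every member followed the order of *NLRC5*: CAL51, at 0 for *NLRC5*, held 132 of *TAP1*, while UACC-812, at 56.4, held 53.8. Among the members besides *NLRC5*, UACC-812 stood above CAL51 for *PSME1* and *TAPBP* and below it for the rest.

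Over the 10 genes together, the median deviation was 3.64 in MDA-MB-415, from 1.65 for *PSME1* to 6.23 for *NLRC5*. Single values depended on which other lines were in the median. With each other line left out in turn, *NLRC5* ran from 4.70 (without CAL51) to 6.83 (without T47D), and leaving out any of the 5 moved it by more than 1.5 times. *ERAP2* (5.81) ran from 4.63 to 6.23 and was lower without UACC-812, SKBR3 or CAL51. *PSMB8* (3.95) ran from 3.84 to 4.99 and *TAP2* (2.39) from 2.39 to 3.28, and both were higher without SKBR3, T47D or CAL51. *PSMB9* (5.36) ran from 4.98 to 5.99 and was higher without T47D or CAL51. The other 5 members moved by less than 1.5 times. All 10 were higher there, by 2-fold or more, than the median of the 5 other lines, as were 19.9% of all genes, and none was 2-fold below, against 18.7% of all genes. MDA-MB-415 was the highest line for 10 of 10, against 16.5% of all genes. It was set against the others as the line where all 10 are highest, so its counts describe a picked line and test nothing. At least 2-fold above every other line were 9 of 10, against 6.85% of all genes, and *PSME1* was the exception, which passed as well under 3 other scalings. The count of 10 at least 2-fold above was the same under all scalings and pseudocounts tried. The count of 10 highest was the same under the scalings, and a pseudocount cannot change which line is highest.

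The other lines fell on both sides. T47D had a median of 1.09, with 5 genes at least 2-fold above (*PSMB8*, *PSMB9*, *TAP1*, *ERAP2* and *NLRC5*), against 16.2% of all genes, and none below, against 11.5%. UACC-812 had a median of -0.97, with *NLRC5* above, against 20.6% of all genes, and 5 below (*PSMB8*, *PSMB9*, *TAP1*, *TAP2* and *ERAP2*), against 13.5%. MDA-MB-453 had a median of -1.37, with *ERAP2* above, against 12.9% of all genes, and 6 below (*PSMB8*, *TAP1*, *TAP2*, *TAPBP*, *ERAP1* and *NLRC5*), against 15.9%. SKBR3 had a median of -0.66, with none above, against 15.9% of all genes, and 4 below (*PSMB9*, *TAP1*, *ERAP2* and *NLRC5*), against 21.2%. CAL51 had a median of -0.30, with *TAP1* above by 1.05, a call lost under 3 other scalings, against 20.9% of all genes, and 2 below (*ERAP2* and *NLRC5*), against 18%. The deviation of -6.08 of *NLRC5* in CAL51 depends on the added 1, since the gene is listed at 0. Leaving out 1 line ended some of these calls. *ERAP2* in MDA-MB-453 was 2.34, and 0.99 without UACC-812. *NLRC5* in MDA-MB-453 was -3.04, and -0.91 without MDA-MB-415 or T47D. *TAP1* in T47D was 1.61, and 0.97 without MDA-MB-453. *TAP1* also lost its call in UACC-812 (-1.47) and SKBR3 (-1.32) without MDA-MB-415, T47D or CAL51, at -0.85 to -0.58 in UACC-812 and -0.88 to -0.62 in SKBR3, and in CAL51 (1.05) without UACC-812, SKBR3 or MDA-MB-453, at 0.18 to 0.39. No other member call in these 5 lines was lost this way.

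Without subtracting the shift, the share of higher genes among all genes called was 22.1% in place of 42.8% in SKBR3, 70.7% in place of 60.5% in UACC-812 and 64.2% in place of 53.8% in CAL51. On that scale SKBR3 had 6 members below in place of 4. With MDA-MB-415 removed and the 5 lines set against each other, T47D had 7 of 10 at least 2-fold above, against 16.6% of all genes, and a median of 1.51. In the same 5 lines the median was 0.31 in CAL51, -0.38 in SKBR3, -0.51 in UACC-812 and -0.99 in MDA-MB-453.

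**Figure D3:**
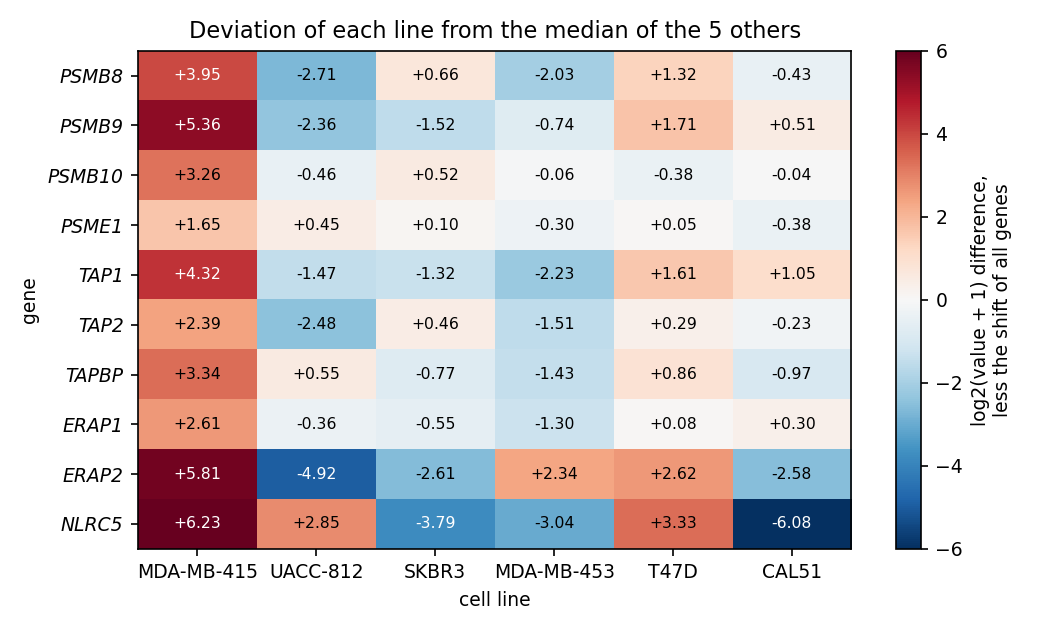
Deviation of each line from the median of the 5 others for each gene, on the log2(value + 1) scale less the shift of all genes, with red above and blue below. The MDA-MB-415 column holds values from 1.65 to 6.23, and the T47D column holds 5 values above 1, while *PSMB10* and *PSME1* stay within 1 of 0 in the other lines.

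How far a gene varied outside MDA-MB-415 differed across the group. The range over the 5 other lines, in log2 units, was 0.43 for *PSMB10* and 0.86 for *PSME1*, 1.64 for *TAPBP* and 1.67 for *ERAP1*, 2.66 for *TAP1* and 2.67 for *TAP2*, 3.24 for *PSMB9*, 3.73 for *PSMB8*, 5.10 for *ERAP2* and 6.23 for *NLRC5*. The median of the 10 was 2.66, and that of all genes was 2.12. *PSMB10* and *PSME1* were thus among the steadier genes of the table in those lines, and *ERAP2* and *NLRC5* among the most variable. Pearson's r between 2 members, on the log2(value + 1) scale, had a median of 0.801 over the 6 lines (45 pairs, 0.391 to 0.987). Over the 5 lines without MDA-MB-415 the median was 0.233 (-0.998 to 0.967), and 15 of the 45 pairs were negative. These describe 6 and 5 points from shared libraries and carry no test.

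Each immunoproteasome subunit takes the place of a constitutive one: *PSMB8* of *PSMB5*, *PSMB9* of *PSMB6* and *PSMB10* of *PSMB7*. Ratios are of (value + 1), so they rest largely on the added 1 where a gene is low, as for *PSMB9* in UACC-812 and SKBR3 and for *NLRC5* in CAL51, and their absolute size depends on the exons of both genes. *PSMB5* stood at 286 in MDA-MB-415, against 80.6 in T47D, 267 in CAL51, 366 in UACC-812, 116 in SKBR3 and 145 in MDA-MB-453. The log2 ratio of *PSMB8* to *PSMB5* lay 3.84 above the median of the other lines in MDA-MB-415 and 3.13 above in T47D, where *PSMB5* was lowest. In UACC-812 it was -4.17, that is below the others, and there *PSMB8* was lowest and *PSMB5* highest. Without UACC-812 or without MDA-MB-453 the ratio lay 3.14 above in MDA-MB-415 and 2.43 above in T47D. In UACC-812 it ran from -5.03 (without MDA-MB-453 or CAL51) to -3.47 (without MDA-MB-415 or T47D).

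*PSMB6* stood at 460 in MDA-MB-415, against 164 in T47D, 454 in CAL51, 283 in UACC-812, 205 in SKBR3 and 122 in MDA-MB-453. The log2 ratio of *PSMB9* to *PSMB6* was raised by 4.59 in MDA-MB-415 and by 2.53 in T47D, each against the median of its 5 others. *PSMB7* stood at 327 in MDA-MB-415 and between 148 and 395 in the 5 others. The log2 ratio of *PSMB10* to *PSMB7* was raised by 3.33 in MDA-MB-415 and by 1.27 in SKBR3 on the same measure, and the remaining lines lay within 1 of the median of the others. MDA-MB-415 ranked first for all 3 of these ratios, so the high levels in this line were not matched by the constitutive partners.

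**Figure D4:**
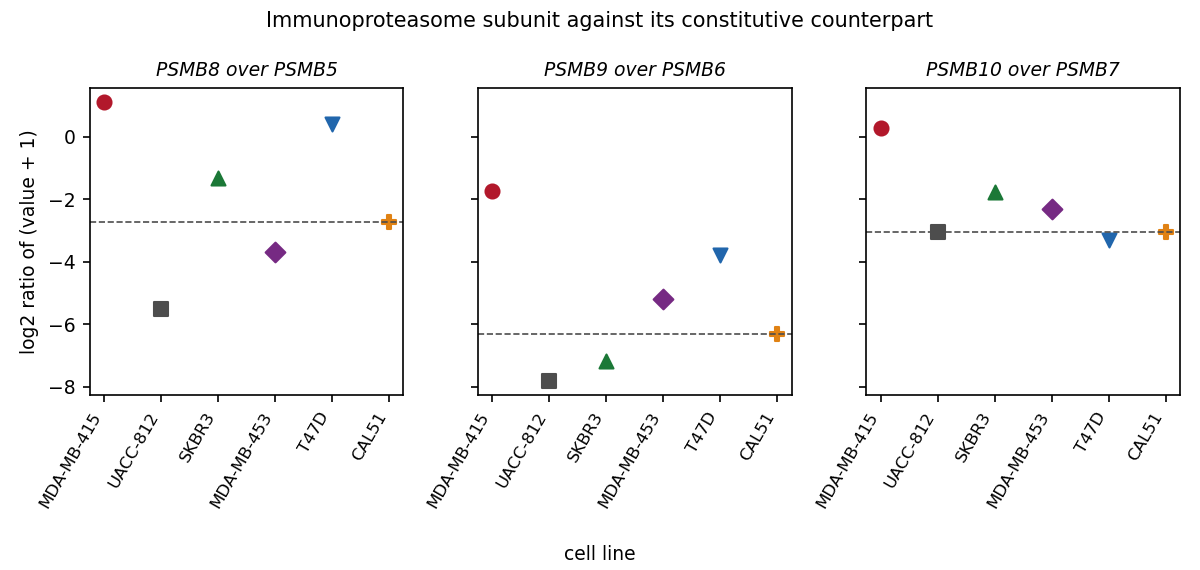
Log2 ratio of (value + 1) of each immunoproteasome subunit gene to that of its constitutive counterpart, with 1 symbol per line and the dashed line at the median of the 5 lines other than MDA-MB-415. MDA-MB-415 lies above that line by 3.84, 4.59 and 3.33 in the 3 panels, and T47D is second for *PSMB8* and *PSMB9* but last for *PSMB10*.

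Other pairs moved less evenly. *TAP1* over *TAP2* lay 0.65 above the other lines in MDA-MB-415 and 1.01 above in UACC-812, and stood at -1.82, below the others, in SKBR3. *TAPBP* over *TAPBPL*, which encodes the tapasin-related peptide editor, lay 1.22 above in MDA-MB-415 and 1.67 above in T47D. *TAPBPL* itself was 82.2 in MDA-MB-415 and between 10.7 and 31.1 in the others. *ERAP2* over *ERAP1* lay 3.09 above in MDA-MB-415, more than the 2.43 in T47D and less than the 3.37 in MDA-MB-453. These values depended on which other lines were in the median. Without UACC-812 the ratio lay 1.87 above in MDA-MB-415, 0.89 above in T47D and 2.16 above in MDA-MB-453, and leaving out SKBR3 or CAL51 also lowered all 3 by more than 1.5 times. The same ratio stood at -4.93 in UACC-812 and -3.07 in CAL51, below the others, and at -3.71 and -1.86 without MDA-MB-415 or without MDA-MB-453, and leaving out T47D also moved both by more than 1.5 times. *CIITA*, the class II counterpart of *NLRC5*, stood at 11.1 in MDA-MB-415, against 6.88 in T47D, 16.9 in CAL51, 1.07 in UACC-812, 0.590 in SKBR3 and 0.480 in MDA-MB-453. The ratio of *NLRC5* to *CIITA* lay 3.19 above in MDA-MB-415, and 3.85 above without UACC-812 or T47D. CAL51 listed *NLRC5* at 0 while holding the highest *CIITA* of the 6 lines.

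Few other proteasome genes passed 2-fold, where over all genes 19.9% were above and 18.7% below in MDA-MB-415. Of the 11 other subunits of the 20S core, 1 (*PSMB2*) was at least 2-fold above in MDA-MB-415 and none below, with a median deviation of 0.26. Of the 17 subunits of the 19S regulatory particle, none was above and 1 was below, *PSMD6* at 175 against 441 to 789, with a median of 0.03. Of the 8 other activators and assembly factors, *PSME2* was above and the assembly chaperone gene *PSMG1* was below, at 97.7 against 136 to 341, with a median of -0.17. The 3 constitutive catalytic subunits had a median of 0.99, with *PSMB6* above. Calls of 2-fold on these low deviations depended on the scaling, and the 20S count lay between 0 and 2 over the alternatives.

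Other genes of peptide handling were mixed, where over all genes 19.9% were above and 18.7% below in MDA-MB-415. Of the 6 other loading chaperones, 3 were at least 2-fold above in MDA-MB-415: *CALR*, encoding calreticulin, at 11308 against 855 to 8919, *PDIA3*, encoding ERp57 of the loading complex, at 19437 against 4452 to 11346, and *TAPBPL*. Of the 10 other peptidases that act on such peptides, none was above and 2 were below, the latter near the share of all genes. *BLMH*, encoding bleomycin hydrolase, was 1.85 in MDA-MB-415 against 141 to 529, and *THOP1*, encoding the cytosolic thimet oligopeptidase, was 131 against 398 to 862. *LNPEP*, which lies beside *ERAP2* and encodes the related aminopeptidase IRAP, was 240 in MDA-MB-415 and between 205 and 700 in the others, and it was not 2-fold above as *ERAP1* and *ERAP2* were.

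The 6 class I heavy chain genes and *B2M*, the light chain gene, had a median deviation of 4.73 in MDA-MB-415 with 7 of 7 above, and *B2M* stood at 23318 against 670 to 1810. Beside this and the counts that follow, 19.9% of all genes were above in MDA-MB-415 and 18.7% below. *HLA-C* was the exception to the ranking, at 15310 in MDA-MB-415 and 16172 in T47D, and reads of the near-identical heavy chain genes may be split uncertainly. Of 12 interferon-gamma signalling genes 10 were above and 1 (*IRF8*) below, with a median of 1.60. *IRF1*, a transcription factor that binds the response element, stood at 1160 in MDA-MB-415 against 11.0 to 73.1. *IRF9* stood at 277 against 14.6 to 31.2. T47D, second in most members, had *IRF1* at 15.2. Of the 9 regulators of class I and class II promoters, *CIITA* was above in MDA-MB-415, and *RFXAP* at 2.32 against 6.88 to 37.4 and *NFYB* at 117 against 306 to 595 were below. *RFX5*, whose product anchors NLRC5 at class I promoters together with these partners, was 333 against 151 to 642. Of the 4 measured NF-kB subunit genes, *NFKB1* was above, at 603 against 147 to 612.

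**Figure D5:**
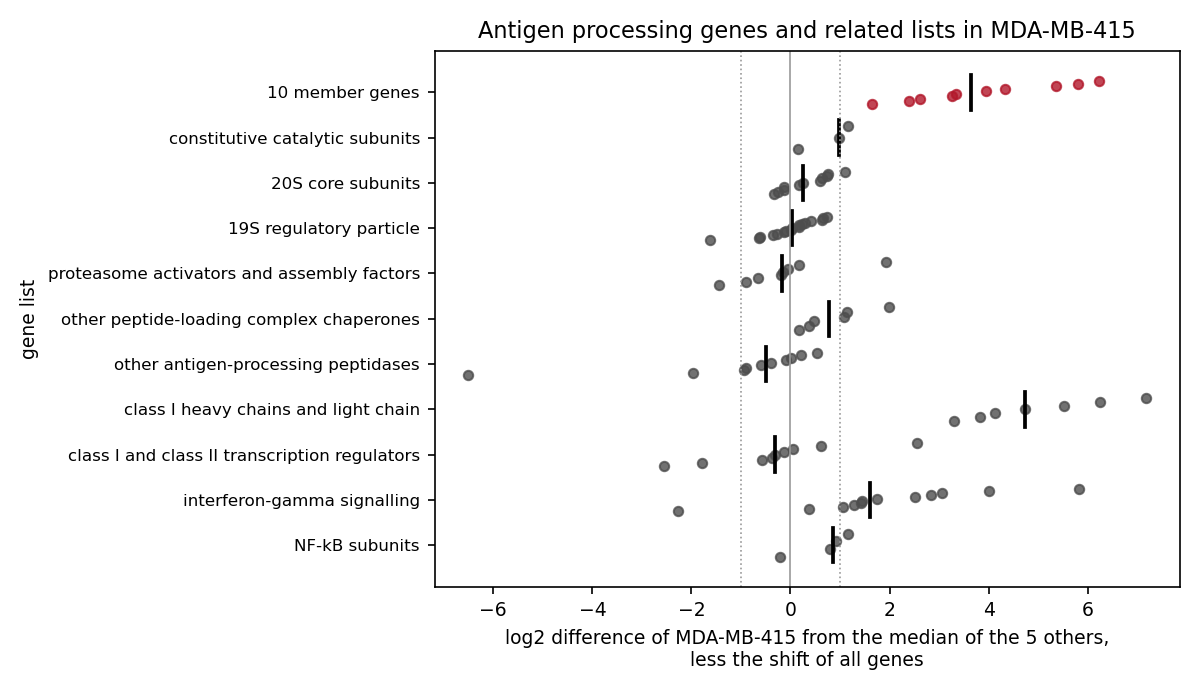
Deviation of MDA-MB-415 from the median of the 5 other lines, on the log2(value + 1) scale less the shift, for the 10 genes (red) and for 10 related lists (grey). Each point is 1 gene, black bars are medians and dotted lines mark 2-fold. The 10 genes have a median of 3.64 and the class I chains 4.73, whereas the 20S and 19S subunits lie around 0.26 and 0.03.

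The members lie at several loci: 5 on chromosome 6, 2 on chromosome 5, 2 on chromosome 16 and 1 on chromosome 14. *TAP2*, *PSMB8*, *TAP1* and *PSMB9* are consecutive among the genes of the table, in the MHC class II region. Of 60 non-member genes among the 5 nearest on each side of each member, 22 were at least 2-fold above in MDA-MB-415, or 36.7% against 19.9% of all genes. Of the same 60, 3 were below, where 18.7% of all genes were below, and the median deviation was 0.28. Those raised included *HLA-DOB* at 78.1 and *HLA-DMA* at 421, both class II genes beside the chromosome 6 cluster. *BRD2*, encoding a bromodomain protein and lying beyond *HLA-DMA*, had a deviation of 0.33, and *HLA-DMB* stood at 1.52 in MDA-MB-415. *TAPBP* lies apart from that cluster, and its nearest neighbours *RGL2* and *ZBTB22* had deviations of 0.09 and 0.18.

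Elsewhere, 1 of the 10 neighbours of *PSMB10* was above, the adjacent *LCAT*, and *CTRL* on its other side had a deviation of 0.52. On the far side of *PSME1*, beyond *FAM158A* with a deviation of -0.21, lay *PSME2*, *RNF31* and *IRF9*, which were all above, whereas *FITM1*, on the near side, stood at 0.182. *ERAP1* and *ERAP2* are adjacent on chromosome 5 between *CAST*, encoding calpastatin, at a deviation of 1.79, and *LNPEP* at -0.60. Of the 9 non-member neighbours of *ERAP1* 5 were above, among them *GLRX*, encoding glutaredoxin, at 1670 in MDA-MB-415 against 4.77 to 38.8, and *ELL2*, encoding an elongation factor, at 944 against 17.2 to 133. Their deviations of 6.63 and 4.54 exceeded that of *ERAP1*, 2.61. *NLRC5* lies between *CETP*, with a deviation of 1.98, and *CPNE2*, with 1.53.

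The genes whose profile over the 6 lines came nearest to the mean centred profile of the members, by Euclidean distance on the log2(value + 1) scale over 14647 genes reaching 5 in any line, were *CCL3* (0.59), *CDA* (0.65), *GNA15* (0.66), *HCP5* (0.70), *CABP4* (0.78), *TNFSF15* (0.94), *ADH1B* (0.95), *CPXM2* (1.02), *PARP12* (1.02) and *EPHB1* (1.05). *PARP12* stood at 368 in MDA-MB-415 against 27.0 to 96.7. The others of these genes were low, at 31.7 or less in MDA-MB-415 and 5.46 or less elsewhere. Their nearness therefore rests largely on the added 1. Among the members *TAPBP* (1.35) and *TAP1* (1.36) lay nearest to their common profile, and *ERAP2* (3.83) and *NLRC5* (5.17) lay farthest.

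Markers of other cells were read beside these results. Over all genes, 19.9% were at least 2-fold above in MDA-MB-415 and 18.7% below. The 5 epithelial markers were above 0 in all 6 lines, with a summed level of 21443 in MDA-MB-415 and between 14613 and 97942 in the others. In MDA-MB-415 the median deviation of the 5 was -0.45, with *KRT8* and *KRT18* at least 2-fold below, at -1.24 and -1.51, and *CDH1* above, at 3.12. *CDH1* stood at 1774 there, under 2794 in UACC-812 and 3978 in T47D and over 205 in MDA-MB-453 and 107 in CAL51. In SKBR3 it was 0.823, near the worth of 3 reads in a 150-base exon, 0.593. *KRT19* and *EPCAM* had deviations of -0.45 and -0.10 there. For 9 leukocyte markers the summed level was 271 in MDA-MB-415 and between 10.1 and 76.9 in the others. In MDA-MB-415 3 of the 9 were at least 2-fold above and 2 below. Those above were *CD14*, at 176 in MDA-MB-415 against at most 1.06 in the others, *CD68*, at 87.5 against 5.09 to 64.7, and *CSF1R*, at 6.19 against 0 to 15.5. Those below were *PTPRC*, the common leukocyte antigen gene, at 0.489 in MDA-MB-415, and *LAPTM5* at 0.114, and *CD3E* and *MS4A1* were listed at 0 there. Of 9 stromal and endothelial markers 7 were measured, with sums of 205 in MDA-MB-415 and 17.0 to 285 in the others. In MDA-MB-415 4 of the 7 were at least 2-fold above and 1 below. *DCN* stood at 11.1 in MDA-MB-415 and was listed at 0 in every other line, and *VWF* stood at 20.4 against at most 2.30. *CDH5* was above at 3.43 in MDA-MB-415 against 0 to 10.3, and *COL3A1*, whose deviation was the median of the 7, was above at 2.45 against 0 to 6.09. The gene below was *PDGFRB*, and *PDGFRB* and *COL1A2* were listed at 0 in MDA-MB-415. What part these markers have in the results was not tested.

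Some members share exon sequence with annotated neighbours, and no source used here states whether reads were counted by strand. In GENCODE 29 the exons of *PSMB8* overlap *PSMB8-AS1* on the opposite strand over 618 bases, those of *TAP1* overlap it over 456 bases, those of *PSMB8* and *PSMB9* overlap each other over 139 bases, and those of *ERAP1* overlap *CAST* over 299 bases. *PSMB10* shares 644 bases and *TAP2* 2064 bases with an unnamed same-strand gene model, so part of their levels may belong to those models. No member had the same values in all 6 lines as another gene.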

How the data were processed

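RNA was extracted with Tri reagent, treated with DNase and made into libraries with an mRNA kit, per the labels' protocols, and read as single ends, per the series' design text. CASAVA 1.8, RSEM and the build hg19 are named, per the submitters' processing notes; their roles and the annotation are not given in the sources used here. The deposited table holds a value per gene and line that was read here as RPKM summed over exons, a unit inferred and not stated by the submitters. The labels are silent on the unit, which rests on the values themselves. For each line the library total was picked as the one at which most low single-exon genes came out at a whole number of reads, within 0.02 reads. That share was 71.7% to 83.1%, against medians of 2.42% to 3.42% at other totals. The picked totals gave the depth. In a single-exon gene, RPKM of the whole gene and RPKM summed over exons are the same, so this share cannot tell them apart. Genes with several exons do not yield whole reads, so count tests were left out.

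Of 16444 genes, 22 with names turned into dates and 4 sharing 2 names were left out. Deviations used log2(value + 1), which understates changes of low genes, and a 2-fold threshold (Python 3.11.15, numpy 2.4.6, pandas 2.3.3). The procedure was tested on simulated data. Members, lists, pairs and motifs were chosen with earlier results of these data known. The definition of the group names no line. MDA-MB-415, the line set against the others, is the one where all 10 members are highest, so its counts describe a picked line. Named besides the members were up to 4 genes of each list with the widest range among those reaching 5, the paired genes, the 10 nearest profiles, the adjacent genes and a set of further genes such as B2M and IRF1. A few listed genes are not reported here; the signalling counts still hold them, and the leukocyte sums do not. Outside that rule, IRF8, HLA-C, EPCAM, PTPRC, CD3E, MS4A1, COL1A2, CD68, CSF1R, COL3A1, CDH5, GLRX, ELL2, HLA-DMA, BRD2 and RNF31 were chosen after their values were seen. Neighbour order came from RefSeq symbols (16039 genes matched, 97.7%), exon overlaps from GENCODE 29, and promoters from RefSeq, all on GRCh38, so no hg19 coordinates are given. Other scalings, pseudocounts, line references and a level filter were tried. NLRC5 had no promoter window and its promoter was not analysed here.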

Additional observations from a re-analysis of the deposited data

How the results depend on the processing

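The alternatives were 3 other scalings between libraries, no shift subtraction, pseudocounts of 0.1 and 5, the mean of the other lines as reference, each other line left out in turn, and genes reaching 5 as background. Under all 13 of them every member stayed at least 2-fold above in MDA-MB-415 (130 of 130 values). MDA-MB-415 stayed highest for 10 of 10 under the 3 scalings. The remaining alternatives could not put another line above it, so they do not bear on that count. The number at least 2-fold above every other line was 9, or 10 under the scalings, which moved PSME1 across the threshold. The median deviation lay between 3.56 and 4.08 in MDA-MB-415, between 0.68 and 1.51 in T47D, between -0.64 and 0.31 in CAL51, between -1.20 and -0.51 in UACC-812, between -1.12 and -0.34 in SKBR3, and between -1.52 and -0.99 in MDA-MB-453. In CAL51 (-0.30) it ran from -0.54 to 0.31 as each other line was left out, positive without MDA-MB-415 and without T47D. Members 2-fold above numbered 4 to 7 in T47D (5), 0 to 2 in CAL51 (1), 0 to 2 in SKBR3 (0), 0 to 1 in MDA-MB-453 (1) and 1 in UACC-812 throughout, and members below 0 in T47D throughout, 2 to 4 in CAL51 (2), 3 to 6 in SKBR3 (4), 5 to 7 in MDA-MB-453 (6) and 4 to 6 in UACC-812 (5), with the reported count in brackets. CAL51 had 0 above, with TAP1 under the threshold, under the scalings, the mean reference, the level filter and without UACC-812, SKBR3 or MDA-MB-453, and 4 below without MDA-MB-453. SKBR3 had 2 above without MDA-MB-415 or T47D. With each other line left out in turn, 4 of the pair ratios at least 1 from the median of the other lines changed sign. PSMB8 over PSMB5 in SKBR3 ran from -0.17 to 1.87, and PSMB9 over PSMB6 in MDA-MB-453 from -0.13 to 1.56. NLRC5 over CIITA ran from -1.78 to 0.15 in MDA-MB-453 and from -0.27 to 1.67 in T47D. Some smaller pair ratios changed sign as well. These were PSME1 over PSME3 in MDA-MB-453 and SKBR3, TAP1 over TAP2 in T47D and CAL51, and TAPBP over TAPBPL in SKBR3. With the mean as reference, NLRC5 over CIITA in MDA-MB-453 was 0.19. ERAP2 over ERAP1 in MDA-MB-415 (3.09) ran from 1.87 to 3.41 and kept its sign. With pseudocounts of 0.1 and 5, NLRC5 over CIITA in MDA-MB-415 (3.19) was 2.15 and 4.02. The cause was not tested. No paired analysis was possible because each line has 1 library. Depth limits PSMB9 in UACC-812 and SKBR3, and NLRC5 in CAL51.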
